A study of Homo sapiens with 9 samples.

Results

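The RNAs described here are those that a control immunoprecipitation (IP) with isotype-matched IgG gathered from lysate of Huh7 cells, a human hepatoma line, set against the size-matched input (SMI) of the same experiment. The comparison used 6 of the 9 eCLIP libraries of the study, 3 of IgG IP and 3 of SMI. The other 3 libraries are IPs with an antibody to the metabolic enzyme MDH2 and are shown beside these only where stated. All cells were cross-linked by UV light, lysed in RIPA buffer, sonicated and treated with RNase I, and no group carried a genetic change or a drug. The SMI is lysate that was not immunoprecipitated, but was run on the gel and cut from the same size range. Each value counts the cross-link sites of the windows along the exons or introns of a gene. Sites were summed per gene identifier, with exon and intron windows kept apart, and such a sum is called an exon feature or an intron feature. Of 54067 features listed, 25783 (47.7%) reached 10 counts in 3 or more of these 6 libraries and were tested, 12787 of them exon features and 12996 intron features. They belong to 15281 gene identifiers.

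An IP with nonspecific IgG carries no antibody to a cellular protein. RNA reaches its eluate by sticking to beads, antibody or plastic, or by staying attached to proteins that do so, and eCLIP studies use it as a measure of background beside the input. RNAs differ in ways that can matter for such carry-over: introns and many long noncoding RNAs stay in the nucleus, small RNAs are packed into stable protein particles, and the mitochondrial transcripts lie inside an organelle.

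Window counts summed to between 1631220 and 2942624 per IgG IP library and to between 8311027 and 9788461 per SMI library. A low IgG IP count is therefore less precise than the same share in SMI. PCR ran for 14 cycles for IgG IP and 9 for SMI, so the IP and the amplification cannot be told apart in this comparison. The labels do not say whether the 3 libraries of a group came from separate cultures, so the p-values measure the spread between these libraries, which may be technical. All values are shares of a library: a higher value in IgG IP means that an RNA took a larger part of the library, not that more of it was recovered, and fewer cells or less RNA per cell cannot be told apart. All 10 hepatocyte markers examined had tested exon features. They are given in CPM (counts scaled by TMM to a common library size, as in all values per gene below). The highest was APOB, the main protein of secreted lipoproteins, with 1059 to 2304 CPM in IgG IP and 2748 to 3531 in SMI. The lowest was APOH, with 2.40 to 10.3 CPM in IgG IP and 7.08 to 10.4 in SMI. Of the markers of other cells, the leukocyte gene PTPRC was at 0 in each IgG IP library and at most at 0.303 CPM in SMI. The endothelial gene PECAM1 had 0 to 3.37 CPM in IgG IP and 2.83 to 4.17 in SMI. The fibroblast gene COL1A2 had 1.80 to 2.69 CPM in IgG IP and 0.873 to 2.12 in SMI. The erythroid gene HBB was not listed. In IgG IP, the range of APOH overlapped those of PECAM1 and COL1A2.

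Introns held a larger part of the IgG IP libraries than of the input. Intron windows held 61.5%, 65.0% and 69.0% of the counts in IgG IP replicates 1, 2 and 3, and 56.1%, 50.2% and 54.3% in SMI. Each IgG IP library lay above each SMI library, and the means were 65.1% ± 3.75 (SD, n = 3) and 53.5% ± 3.01, a difference of 11.6 percentage points (p = 0.10 by an exact two-sided permutation test, which can go no lower with 3 libraries against 3). In the MDH2 IP, introns held 43.8% ± 3.31. Most of the intron counts lay in mRNA genes, whose introns held 59.7% ± 3.71 of the IgG IP counts and 48.4% ± 2.87 of the SMI counts. Exons of mRNA genes held 28.9% ± 2.86 and 34.5% ± 1.72.

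Within the exons of mRNA genes with at least 3 exons, the counts shifted towards the 5′ end. First exons held 11.1% ± 0.525 (SD, n = 3) of exon counts in IgG IP and 7.93% ± 0.302 in SMI. Last exons, which carry most of the 3′ untranslated region, held 33.4% ± 1.29 and 37.6% ± 0.766. For both, the libraries of the 2 groups did not overlap (exact two-sided permutation test, p = 0.10 each). Internal exons held 55.5% ± 1.59 and 54.5% ± 0.680, and these libraries overlapped (p = 0.50, exact two-sided permutation test). The IgG IP counts were also spread over more windows: the 100 fullest windows of each library held 2.59% ± 0.576 of its counts in IgG IP and 5.85% ± 0.689 in SMI, again without overlap (exact two-sided permutation test, p = 0.10).

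**Figure D1:**
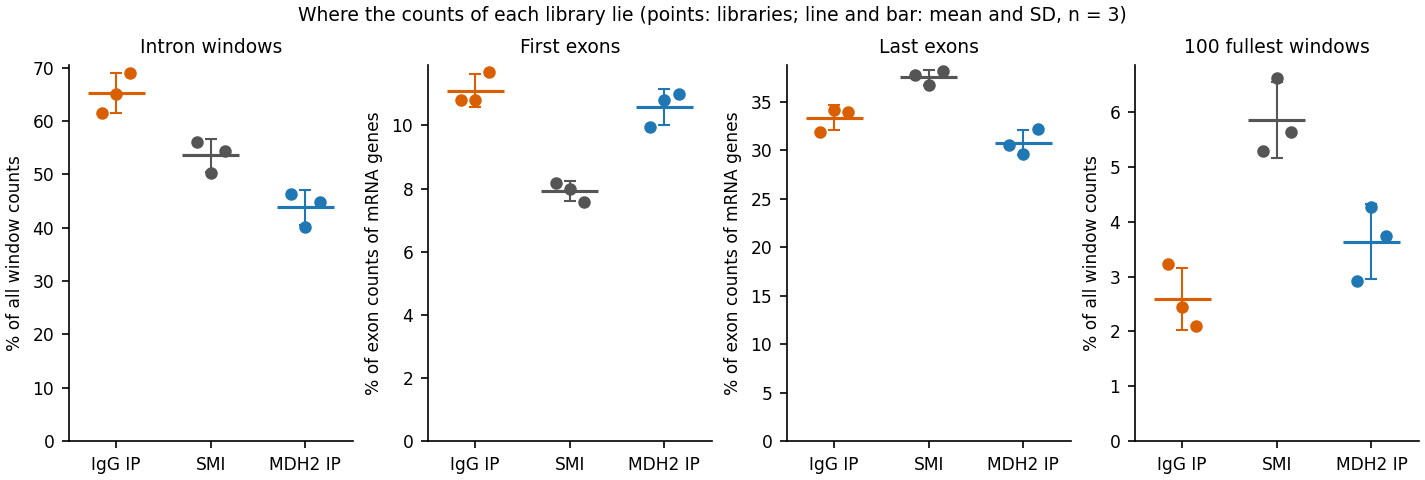
Share of each library's counts, in percent, in intron windows, in first and last exons of mRNA genes, and in the 100 fullest windows, for IgG IP, SMI and MDH2 IP. Points are libraries, and lines and bars are means and SD (n = 3). Intron shares of IgG IP (61.5% to 69.0%) lie above those of SMI (50.2% to 56.1%), and its 100 fullest windows hold 2.10% to 3.22% against 5.29% to 6.62%.

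Introns of genes with few exon counts also took a larger part of the IgG IP. For 4032 mRNA genes with fewer than 10 exon counts in the MDH2 IP libraries, introns held 0.568%, 0.597% and 0.585% of all counts in IgG IP and 0.386%, 0.359% and 0.338% in SMI. The means, 0.583% ± 0.0147 and 0.361% ± 0.0242 (SD, n = 3), differed by a factor of 1.62 without overlap (exact two-sided permutation test, p = 0.10). As a part of mRNA intron counts alone, these genes held 0.980% ± 0.0504 and 0.747% ± 0.0554.

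Stable small RNAs and ribosomal RNA took the opposite course. Small nuclear RNAs held 0.191% ± 0.0170 (SD, n = 3) of the counts in IgG IP and 2.19% ± 0.281 in SMI, a ratio of 0.0871. Mitochondrial rRNAs held 1.91% ± 0.297 and 4.21% ± 0.712, small nucleolar and Cajal body RNAs 0.236% ± 0.154 and 0.634% ± 0.0973, and the rRNA genes 0.0255% ± 0.0155 and 0.111% ± 0.0177. Mitochondrial tRNAs went up, from 0.0431% ± 0.0141 in SMI to 0.101% ± 0.0235 in IgG IP. Each of these classes differed without overlap (exact two-sided permutation test, p = 0.10, and 0.133 after adjustment over the 16 classes). Nuclear tRNAs, with 0.147% ± 0.0874 and 0.198% ± 0.0403, overlapped between the groups (exact two-sided permutation test, p = 0.400).

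Tested feature by feature and scaled by TMM, the calls in introns were mostly upward and those in exons more often downward. Of the 12787 exon features, 959 (7.50%) were higher and 1356 (10.6%) lower in IgG IP with the adjusted p no larger than 0.05 (edgeR quasi-likelihood test, two-sided, Benjamini-Hochberg over all features). Of the 12996 intron features, 2621 (20.2%) were higher and 707 (5.44%) lower. The median log2 fold change of IgG IP over SMI was −0.28 for exons, 0.08 for introns and −0.11 for all features. At a fold of 2 or more, 710 exon features (5.55%) were higher and 943 (7.37%) lower, and 2309 (17.8%) and 315 (2.42%) intron features. Over all features, 3580 (13.9%) were higher and 2063 (8.00%) lower, and 3019 (11.7%) and 1258 (4.88%) by 2-fold or more. Without regard to the test, every IgG IP library lay above every SMI library for 12.9% of exon and 27.5% of intron features, and below for 27.1% and 16.8%, which over all features made 20.3% above and 21.9% below. The filter let in 3050 features with fewer than 10 counts in each IgG IP library, which passed through SMI alone. Of these, 366 were called lower and 0 higher. The 33 features with fewer than 10 counts in each SMI library were all called higher. Among the other 22700 features, 3547 were higher and 1697 lower.

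The balance of the calls depended on the scaling. With total counts as library size in place of TMM, the median of all features moved from −0.105 to −0.267. Exon features were then higher in 750 and lower in 2113 cases (26.2% of calls higher, against 41.4%) and intron features in 2304 and 1355 (63.0%, against 78.8%). With exons and introns fitted apart, each scaled on itself, 1226 exon features were higher and 765 lower (61.6%), and 2408 intron features were higher and 1635 lower (59.6%). Leaving out SMI replicate 1 left 498 exon features higher and 579 lower, and 1850 intron features higher and 149 lower. Without SMI replicate 2, 679 exon and 381 intron features were lower, and without SMI replicate 3, 789 and 316.

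In 9865 mRNA genes, the only class paired here, both the exon and the intron feature were tested. The intron fold change lay above the exon fold change in 72.7% of them, with a median difference of 0.43 on the log2 scale. Both parts were higher in 547 genes and both lower in 168. In 1556 genes the intron was higher while the exon was not called. Exon and intron were called in opposite directions in few genes: the exon was lower and the intron higher in 19, and the exon higher and the intron lower in 3.

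Genes of both kinds are given here, chosen after their values were seen. GAPDH, a glycolytic enzyme, had 463, 251 and 369 CPM in exons in IgG IP and 559, 614 and 618 in SMI (log2 fold change −0.72, SE 0.22, adjusted p = 0.0328 from the edgeR test). Its introns had 53.2, 36 and 63.3 CPM against 16.1, 11.7 and 18.2 (1.73, SE 0.27, adjusted p = 9.32e-04 from the edgeR test). Neither part overlapped between the groups. The exon call of GAPDH was lost without any one of IgG IP replicates 2 and 3 and the SMI libraries, where its log2 fold change was between −0.77 and −0.51. SRSF6, a splicing factor, had −0.63 in exons (adjusted p = 0.0396) and 2.25 in introns (adjusted p = 1.80e-04, both from the edgeR test), while EIF4A2, an initiation factor whose gene holds SNORA81, had −1.69 and 1.67 (adjusted p = 1.83e-04 and 0.0162). In SMI, SNORA81 had 10196 counts, beside 14983 in the exon feature of EIF4A2 and 149 in its intron feature. In IgG IP, SNORA81 had 261 counts, beside 1013 and 90. The counts of SNORA81 and of this exon feature therefore overlap, and a fall of the EIF4A2 mRNA without SNORA81 was not tested. The exon call of SRSF6 was lost without IgG IP replicate 2 or 3 or any SMI library (−0.64 to −0.49), and the intron call of EIF4A2 without IgG IP replicate 2 or SMI replicate 1 or 2 (1.42 to 1.51). The 3 genes of the opposite kind were the RNA-binding protein CELF1 (0.64 in exons, −0.54 in introns), the chromatin protein MORF4L1 (0.74 and −0.84) and the kinase adaptor STRADA (1.68 and −0.88). Their intron calls were near the threshold, with adjusted p of 0.0485, 0.0220 and 0.0470 from the edgeR test. Leaving out 1 library ended the intron call of CELF1 for each of the 6 libraries (−0.62 to −0.43), that of STRADA for all but IgG IP replicate 1 (−1.0 to −0.72), and that of MORF4L1 for IgG IP replicate 3 and SMI replicates 1 and 2 (−0.81 to −0.65). The exon call of CELF1 was lost without any SMI library (0.61 to 0.69), and that of MORF4L1 without IgG IP replicate 2 or SMI replicate 1 (0.65 each). Without the fullest window and those overlapping it, the exon calls of MORF4L1 (0.15, adjusted p = 0.678) and STRADA (0.46, adjusted p = 0.333 from the edgeR test) ended, as did the intron calls of CELF1 (−0.53), MORF4L1 (−0.51) and STRADA (−0.84) and that of EIF4A2 (1.38). The exon call of CELF1 was also lost with total counts (0.48) and that of SRSF6 with windows that do not overlap (−0.41), so none of the 3 genes of the opposite kind kept both calls under every alternative.

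The fold change of mRNA features followed their base composition. Exon features were grouped by the share of G and C in the annotated exons of the gene. The median log2 fold change rose from −1.03 for 124 exon features with at most 35% GC to 0.63 for 1344 with more than 60%. For introns it went from −0.49 (203 features) to 2.48 (355 features). Among the introns with more than 60% GC, 301 (84.8%) were higher in IgG IP and 0 lower, and among the exons 399 (29.7%) were higher and 7 lower. At the other end, 0 of 124 exons with at most 35% GC were higher and 46 (37.1%) lower. Called mRNA introns differed in length too, with a median of 21.9 kb of intron for those higher and 52.0 kb for those lower.

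Weighted by counts, the mean GC content of mRNA exons was 50.9%, 51.2% and 51.7% in the IgG IP libraries and 48.7%, 48.5% and 48.5% in SMI. For introns it was 46.1%, 46.6% and 47.2% in IgG IP and 42.7%, 42.6% and 42.7% in SMI. Neither overlapped (exact two-sided permutation test, p = 0.10 each). The MDH2 IP, amplified with the same 14 cycles as the IgG IP, lay between them, with 50.2% ± 0.266 for exons and 45.2% ± 0.137 for introns (SD, n = 3), and it did not overlap the IgG IP (exact two-sided permutation test, p = 0.10 each). Across genes, Spearman's rho between GC content and the log2 fold change of IgG IP over SMI was 0.639 over 10919 mRNA exon features and 0.672 over 11038 intron features. These points share the same 6 libraries, and genes are not independent replicates. In each IgG IP library set against the mean MDH2 IP, rho was 0.141 to 0.228 in exons and 0.0998 to 0.277 in introns. The part of the PCR cycles in this pattern was not tested.

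**Figure D2:**
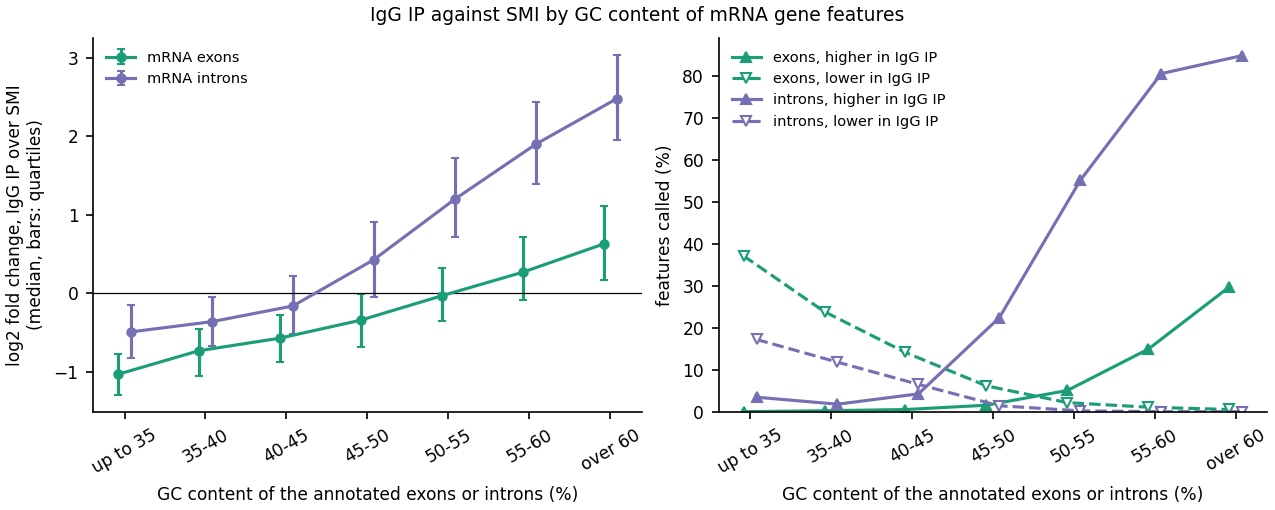
Log2 fold change of IgG IP over SMI (left: median, bars are quartiles) and percent of features called higher or lower (right) for mRNA exon and intron features in 7 ranges of GC content. The medians climb from −1.03 to 0.63 in exons and from −0.49 to 2.48 in introns, and 84.8% of introns with more than 60% GC were higher in IgG IP.

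Some mRNAs went against this trend. Of exon features with at most 45% GC, only 4 in the range of 35% to 40% and 13 in that of 40% to 45% were higher. Among them, chosen after their values were seen, were HNRNPA1 and HNRNPA0, proteins that bind nascent transcripts, with 42.4% and 41.0% GC. HNRNPA1 had 263, 197 and 244 CPM in IgG IP and 155, 154 and 142 in SMI (log2 fold change 0.64, SE 0.18, adjusted p = 0.0227 from the edgeR test), and it lost its call with total counts (0.48) and without IgG IP replicate 1 or any SMI library (0.58 to 0.66). HNRNPA0 had 117, 136 and 114 CPM against 72.9, 68.6 and 75.2 (0.76, adjusted p = 0.00993 from the edgeR test, and no call without SMI replicate 1, at 0.77). Neither gene overlapped between the groups. TMEM19, at 42.5% GC, had 90.0, 207 and 355 CPM against 12.1, 14.5 and 21.3 (3.75, adjusted p = 9.64e-05 from the edgeR test), but the counts sat in overlapping windows of exon 1. Window 18 there had 80, 110 and 171 counts in IgG IP and 5, 9 and 11 in SMI, and without the fullest window and those overlapping it the log2 fold change was −0.90 (adjusted p = 0.109).

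The 5 exon features with the most IgG IP counts were MT-RNR2 and MT-RNR1, the mitochondrial rRNAs, MALAT1 and NEAT1, long noncoding RNAs of nuclear speckles and paraspeckles, and IGF2, the mRNA of a fetal growth factor. IGF2, on chr11:2129112-2158391 (GRCh38, minus strand), had 2833, 4062 and 2775 CPM in IgG IP and 549, 489 and 519 in SMI. The groups lay far apart, and the log2 fold change was 2.63 (SE 0.20, adjusted p = 6.67e-06 from the edgeR test). On the scale of a fit of all 9 libraries, which uses the same SMI libraries, its mean was 3427 CPM in IgG IP, 540 in SMI and 623 in MDH2 IP. NEAT1, on chr11:65422774-65445540 (plus strand), had 3517, 3501 and 2032 CPM against 567, 617 and 312 (2.60, SE 0.29, adjusted p = 8.10e-05 from the edgeR test), with 857 CPM in MDH2 IP on the 9-library scale against 3198 and 520. MALAT1, whose gene is next to NEAT1, had 3704, 5131 and 3477 CPM against 3590, 4607 and 3513. These overlapped, and the log2 fold change of 0.07 was not called (adjusted p = 0.828 from the edgeR test), with −0.09 when scaled by total counts.

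Along NEAT1, IgG IP was above SMI in each of 10 equal parts of the windows, by ratios of 3.12 to 10.2. The first part, at the 5′ end, held the most counts in both groups, 1332 CPM ± 481 and 209 CPM ± 92.3 (SD, n = 3). The IGF2 counts lay mainly in exon 9, the last exon, with a mean of 2597 CPM in IgG IP and 422 in SMI. Within this exon the ratio was largest in part 4 of 10, at 26.2 (119 CPM ± 61.7 against 4.53 CPM ± 1.35), and smallest in part 10, at 1.86 (158 CPM ± 38.5 against 84.9 CPM ± 11.3). Along MALAT1 the ratio stayed between 0.541 and 1.51. The other nuclear lncRNA of this list with a call upward was KCNQ1OT1, the antisense transcript of an imprinted locus, with 630, 439 and 759 CPM against 298, 219 and 321 (1.12, SE 0.23, adjusted p = 0.00462 from the edgeR test). Of the 5 tested nuclear lncRNAs, 2 were higher and 1 lower.

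**Figure D3:**
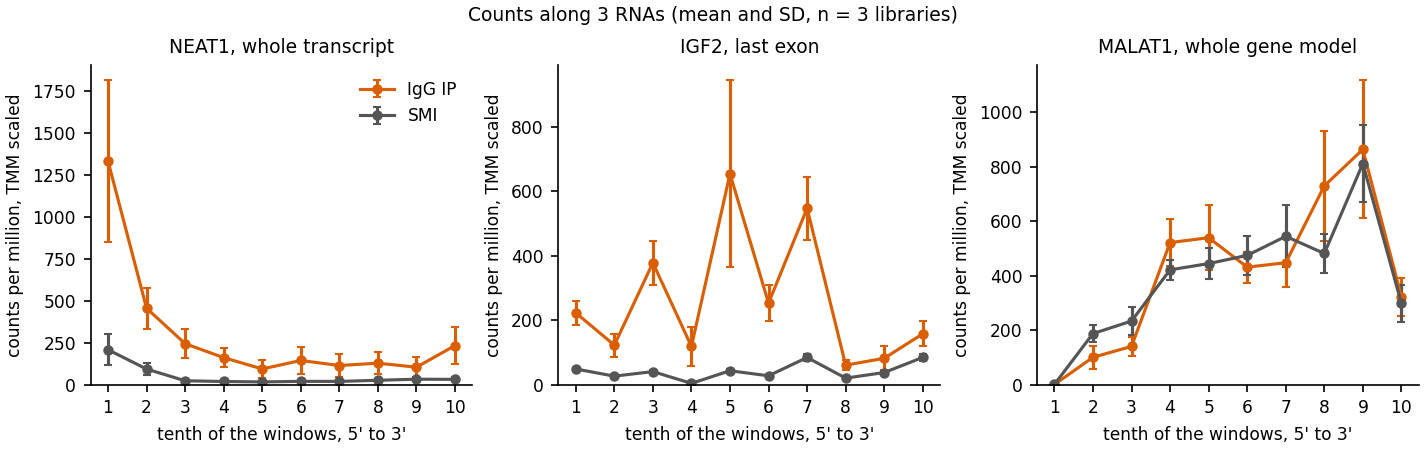
CPM in 10 equal parts of the windows of NEAT1, of the last exon of IGF2 and of MALAT1, from 5′ to 3′, as mean and SD of 3 libraries. IgG IP lies above SMI along NEAT1 (ratios 3.12 to 10.2) and IGF2 (1.86 to 26.2), while the groups stay within ratios of 0.541 to 1.51 along MALAT1.

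Of the 5 intron features with the most IgG IP counts, 4 were higher than in SMI. The introns of SHANK2, a synaptic scaffold protein, had 5770, 5546 and 8190 CPM in IgG IP and 1415, 1103 and 1492 in SMI (log2 fold change 2.28, SE 0.21, adjusted p = 2.22e-05 from the edgeR test). Those of the spindle checkpoint gene MAD1L1 had 2847, 2386 and 3720 CPM against 404, 268 and 398 (3.06, SE 0.24, adjusted p = 7.30e-06), those of the calcium pump ATP2B2 2487, 2097 and 3708 against 587, 450 and 687 (2.27, SE 0.25, adjusted p = 6.20e-05), and those of ZFPM1, a cofactor of GATA factors, 2065, 2133 and 3987 against 133, 98.9 and 178 (4.32, SE 0.32, adjusted p = 5.88e-06). In these 4 genes the groups did not overlap, and no window held more than 0.406% of the counts. The introns of the polarity gene PARD3, at 39.9% GC, had 2972, 2914 and 4241 CPM against 2843, 2420 and 3090, which overlapped (0.28, adjusted p = 0.338). The introns of RXRA, a nuclear receptor, chosen after their values were seen, had 1834, 1917 and 3161 CPM against 115, 102 and 137 (4.28, SE 0.26, adjusted p = 1.70e-06 from the edgeR test). Those of F7, coagulation factor VII, likewise chosen, had 722, 1819 and 298 CPM against 32.9, 51.0 and 19.1 (4.78, SE 0.60, adjusted p = 1.69e-04 from the edgeR test), with a wide spread between IgG IP libraries. In both groups the F7 value was highest in replicate 2 and lowest in replicate 3.

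Several genes were higher in both parts. TOM1, an adaptor of endosomal sorting, had 329, 407 and 370 CPM in exons in IgG IP and 33.9, 33.8 and 25.8 in SMI (3.56, SE 0.20, adjusted p = 1.28e-06 from the edgeR test), and 3.60 in introns (adjusted p = 5.93e-07). RILPL1, a regulator of ciliary transport, had 3.47 in exons (adjusted p = 8.66e-06) and 2.17 in introns (adjusted p = 9.75e-05). The splicing repressor PTBP1, in contrast, had 306, 263 and 269 CPM against 221, 199 and 248 in exons (0.33, adjusted p = 0.195) and 225, 300 and 368 CPM against 52.9, 35.1 and 54.0 in introns (2.65, SE 0.24, adjusted p = 2.04e-05 from the edgeR test). TOM1, RILPL1 and the introns of PTBP1 were chosen after their values were seen.

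**Figure D4:**
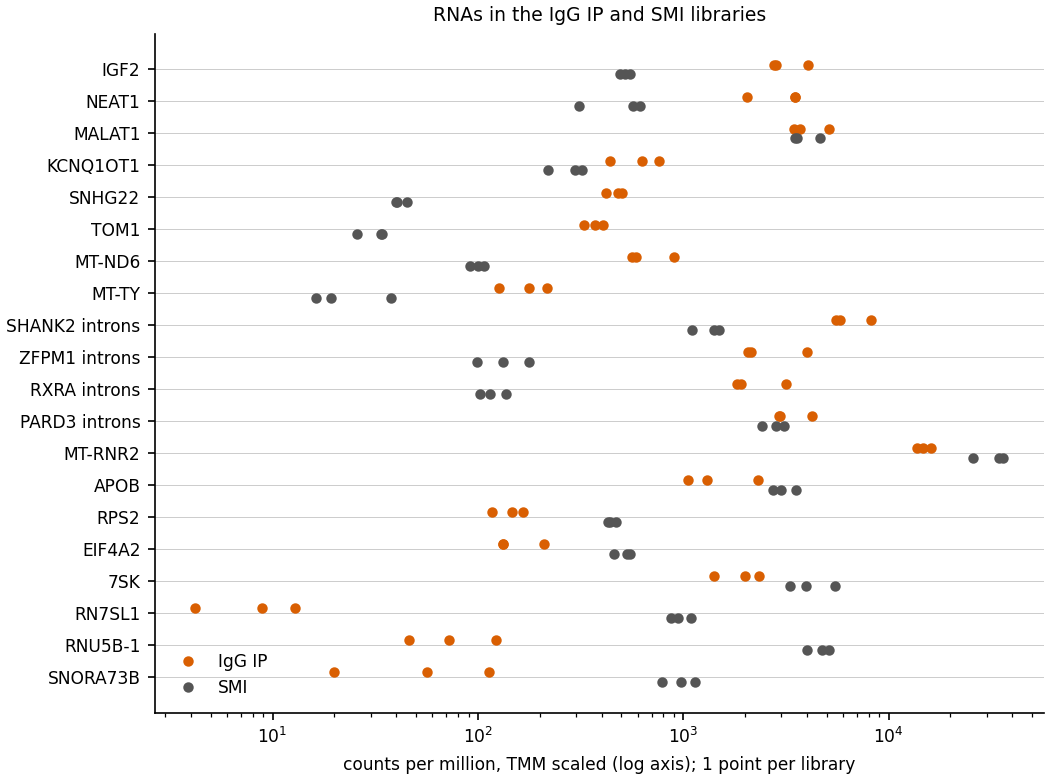
CPM, TMM scaled, of 20 exon or intron features in each IgG IP and SMI library, on a log axis. IGF2, NEAT1 and the introns of ZFPM1 and RXRA are higher in IgG IP, MALAT1 and the introns of PARD3 overlap, and RN7SL1, RNU5B-1 and SNORA73B are higher in SMI.

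Among mitochondrial transcripts, the calls upward were in tRNAs and in MT-ND6. Most genes of the mitochondrial genome lie on its plus strand in the reference, while the complex I subunit ND6 and 7 further genes listed here, all tRNAs, lie on the minus strand. Of the 8 listed minus-strand genes, 3 were tested, MT-ND6, MT-TY and MT-TP, and all 3 were higher. Together, the 8 genes held 0.122%, 0.0897% and 0.0794% of counts in IgG IP and 0.0161%, 0.0221% and 0.0143% in SMI, which did not overlap (p = 0.10, exact two-sided permutation test). The 28 plus-strand genes held 2.62% ± 0.387 (SD, n = 3) in IgG IP and 5.12% ± 0.836 in SMI, also without overlap (p = 0.10, exact two-sided permutation test). Of the 23 of them that were tested, 6 were higher and 3 lower, with a median log2 fold change of −0.28. All 6 were tRNAs, among them MT-TL1 (2.33), MT-TM (2.16), MT-TG (2.12) and MT-TF (2.02), beside 2.01 for MT-TP on the minus strand. The rRNAs made up most of the plus-strand share, with 1.91% in IgG IP and 4.21% in SMI. In the MDH2 IP the minus-strand genes held 0.0436% ± 0.00921 and the plus-strand genes 3.72% ± 0.486.

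MT-ND6, chosen after its values were seen, had 896, 589 and 561 CPM in IgG IP and 99.8, 107 and 91.4 in SMI (log2 fold change 2.78, SE 0.22, adjusted p = 7.59e-06 from the edgeR test). On the 9-library scale it had 723 CPM in IgG IP, 103 in SMI and 114 in MDH2 IP. The minus-strand tRNAs MT-TY and MT-TP, for tyrosine and proline, are printed because they come from the same strand as MT-ND6 and were also higher. The sequences are from GENCODE v44 transcripts, 5′ to 3′, with the anticodon in capitals (chrM:5826-5891 and chrM:15956-16023, GRCh38, minus strand).
MT-TY: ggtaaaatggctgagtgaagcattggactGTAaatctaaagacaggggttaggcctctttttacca
MT-TP: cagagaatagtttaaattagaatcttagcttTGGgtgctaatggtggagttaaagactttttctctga
MT-TY had 216, 177 and 127 CPM in IgG IP and 19.2, 37.6 and 16.2 in SMI, and MT-TP 152, 162 and 177 against 31.0, 63.2 and 27.6. Neither overlapped. On the 9-library scale, MT-TY had 153 CPM in MDH2 IP beside 184 in IgG IP, and MT-TP 126 beside 174.

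Among the 11 tested mitochondrial tRNAs, 8 were higher and 1 lower, and the 2 that were not called were MT-TT (0.40, adjusted p = 0.350) and MT-TS2 (0.81, adjusted p = 0.448). The median log2 fold change was 2.01, beside −0.28 for all exon features. These genes have 2 or 3 overlapping windows each. Leaving out the fullest window and those overlapping it therefore leaves no window of them, and that alternative could not test them. Beside MT-TY and MT-TP, the tRNA with the most counts was MT-TH, for histidine, with 444, 276 and 234 CPM against 135, 191 and 84.2 (1.22, SE 0.30, adjusted p = 0.0143 from the edgeR test), and it lost its call without IgG IP replicate 1 (0.93) or SMI replicate 1 (1.21). MT-TV, for valine, was lower (−1.53, adjusted p = 7.75e-04), and its 2 windows differed. Window 1 had 30, 12 and 15 counts in IgG IP and 17, 48 and 27 in SMI, and window 2 had 75, 30 and 19 against 615, 837 and 892. MT-TV lies directly before MT-RNR2. With windows that do not overlap, its log2 fold change was 1.66 (adjusted p = 0.00554 from the edgeR test). That setting keeps window 1 of MT-TV alone and drops window 2, so it is no separate measure of the gene. MT-RNR2, the large rRNA, had 16112, 14751 and 13672 CPM in IgG IP and 25756, 36190 and 34321 in SMI (−1.11, SE 0.19, adjusted p = 0.00155 from the edgeR test). The small rRNA, MT-RNR1, had 7089, 4639 and 4269 against 6337, 9049 and 7715, which overlapped (−0.53, adjusted p = 0.114, and called at −0.76 without IgG IP replicate 1). Of the 13 mitochondrial mRNAs, MT-ND6 was higher and MT-ND3 lower (−0.65, adjusted p = 0.0443), the latter only with IgG IP replicates 2 and 3 and all SMI libraries in the fit (−0.74 to −0.51 without any one of these), and not with windows that do not overlap (−0.59) or without the fullest window (−0.55). The most abundant were MT-ND4 (−0.34, adjusted p = 0.152), MT-CO1 (−0.28, adjusted p = 0.304) and MT-ND5 (0.16, adjusted p = 0.523), none of them called.

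Most tested 7SL, 7SK and spliceosomal RNAs were lower in IgG IP. RN7SL1 and RN7SL2, genes of the 7SL RNA of the signal recognition particle, fell most among them. RN7SL1 had 8.86, 4.21 and 12.8 CPM in IgG IP and 1091, 875 and 939 in SMI (log2 fold change −6.82, SE 0.31, adjusted p = 2.96e-07 from the edgeR test), and RN7SL2 7.44, 7.81 and 10.1 against 855, 671 and 769 (−6.52, SE 0.24, adjusted p = 4.92e-08). Reads of such near-identical copies may be split between genes. 7SK, which holds a transcription elongation factor inactive, had 2328, 2000 and 1406 CPM against 3942, 5455 and 3312, a smaller difference (−1.15, SE 0.24, adjusted p = 0.00508 from the edgeR test). All 4 tested members of this list were lower.

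Of the 9 tested genes of the major spliceosomal snRNAs, 7 were lower and 0 higher, with a median of −4.17. RNU5B-1, a U5 gene, had 71.9, 46.3 and 123 CPM in IgG IP and 4714, 5144 and 4002 in SMI (−5.85, SE 0.34, adjusted p = 1.61e-06 from the edgeR test). The U1 variant RNVU1-7 had 34.7, 33.6 and 62.6 against 2763, 3192 and 2550 (−6.04, SE 0.28, adjusted p = 3.41e-07), and the U2 gene RNU2-2P 809, 716 and 865 against 2164, 2606 and 1890 (−1.48, SE 0.18, adjusted p = 1.53e-04). Of 5 minor spliceosomal and U7 snRNAs, RNU12, RNU11 and RNU4ATAC were among the 4 that were lower (−3.09, −3.21 and −3.55, with adjusted p between 1.86e-06 and 8.34e-05 from the edgeR test). The 4 became 2 without the fullest window and those overlapping it, which leaves few or no windows of such short RNAs. RNU7-1, which acts in the 3′ end processing of histone mRNAs and not in splicing, was the 1 that was higher, with 19.1, 15 and 31.0 CPM against 1.70, 1.31 and 0.582 (4.16, SE 0.47, adjusted p = 8.63e-05), chosen after its values were seen. On the 9-library scale its mean was 20.4 CPM in MDH2 IP, beside 23.1 in IgG IP. RNU7-1 is printed because it was the member of these lists that rose, with the bases aattt in capitals, around which Sm proteins bind in this RNA (chr12:6943816-6943878, GRCh38, plus strand, GENCODE v44).
RNU7-1: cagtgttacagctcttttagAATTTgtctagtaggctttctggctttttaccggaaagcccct

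In the fit of all 6 libraries, small nucleolar RNAs differed by family. H/ACA box snoRNAs guide pseudouridylation and end in an ACA box, while C/D box snoRNAs guide ribose methylation and carry a C box and a D box. Counts here are of identifiers, and some RNAs, such as SNORA50A, have a pair of them. Of 97 tested H/ACA snoRNAs, 77 were lower and 0 higher, with a median of −2.75. Of the 97, 45 had fewer than 10 counts in each IgG IP library and passed the filter through SMI alone, and 37 of these were among the 77. Of 76 tested C/D snoRNAs, 4 were lower and 0 higher, with a median of −0.38, close to −0.28 for all exon features. Of the 76, 20 had passed the filter through SMI alone, and 2 of these were among the 4. The counts in this paragraph stand beside 7.50% of all exon features called higher and 10.6% called lower. The C/D group varied widely between IgG IP libraries. Its summed CPM was 300 to 1979 in IgG IP (mean 862) and 820 to 1144 in SMI. The H/ACA sum was 332 to 947 in IgG IP and 3656 to 4870 in SMI. The C/D median without IgG IP replicate 1 was not examined. Sorting by sequence uses the same tested RNAs and the boxes that mark the families, so the counts below restate this split and are no separate support. They again include RNAs that passed the filter through SMI alone. All 198 tested small nucleolar and Cajal body RNAs had a GENCODE v44 sequence, which was searched, on the RNA strand, for ACA 3 bases before the 3′ end (within 1 base), and for a C box (TGATGA within the first 30 bases) and a D box (CTGA within the last 20 bases). Of 99 with the ACA only, 78 were lower and 0 higher, with a median of −2.72. Of 54 with the C and D boxes only, 3 were lower and 2 higher, with a median of −0.56. The 5 with both had 0 calls, and of the 40 with neither, 11 were lower and 2 higher. The 77 H/ACA calls became 24 without each gene's fullest window and the windows overlapping it, which leaves few windows of such short RNAs, and were between 77 and 83 under the other scalings tried.

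The sequences below show where the boxes lie in 2 H/ACA snoRNAs, the Cajal body RNA SCARNA8 and 2 C/D snoRNAs, 5′ to 3′ from GENCODE v44 (GRCh38), with the ACA or the C and D boxes in capitals. SNORA73B and SNORA73A lie at chr1:28508559-28508762 and chr1:28507366-28507571 (plus strand), SCARNA8 at chr9:19063656-19063786 (minus), SNORD17 at chr20:17962710-17962946 (minus) and SNORD12B at chr20:49280319-49280409 (plus).
SNORA73B: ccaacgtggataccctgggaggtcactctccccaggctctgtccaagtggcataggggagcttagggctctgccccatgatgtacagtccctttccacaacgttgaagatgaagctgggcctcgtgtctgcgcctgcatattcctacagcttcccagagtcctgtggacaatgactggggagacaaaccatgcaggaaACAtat
SNORA73A: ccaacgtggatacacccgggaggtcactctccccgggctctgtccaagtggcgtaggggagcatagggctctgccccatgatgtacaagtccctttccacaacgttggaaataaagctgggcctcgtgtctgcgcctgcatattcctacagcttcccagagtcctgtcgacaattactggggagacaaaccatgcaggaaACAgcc
SCARNA8: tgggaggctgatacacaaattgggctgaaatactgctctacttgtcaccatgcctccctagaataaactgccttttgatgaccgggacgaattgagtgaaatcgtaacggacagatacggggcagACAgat
SNORD17: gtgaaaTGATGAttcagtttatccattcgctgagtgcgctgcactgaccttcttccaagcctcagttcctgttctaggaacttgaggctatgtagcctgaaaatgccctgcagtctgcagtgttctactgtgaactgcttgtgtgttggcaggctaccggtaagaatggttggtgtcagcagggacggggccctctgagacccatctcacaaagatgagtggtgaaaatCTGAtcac
SNORD12B: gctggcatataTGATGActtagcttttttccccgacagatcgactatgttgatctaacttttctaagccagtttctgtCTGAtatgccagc
SNORA73B had 113, 19.8 and 56.5 CPM in IgG IP and 788, 1146 and 978 in SMI (−3.91, SE 0.46, adjusted p = 1.11e-04 from the edgeR test), and SNORA73A 95, 28.2 and 42.4 against 579, 818 and 647 (−3.59, SE 0.37, adjusted p = 4.57e-05). Reads of these near-identical copies may be split between them. SNORA81 had 64.5, 23.4 and 26.9 against 302, 375 and 370 (−3.15, SE 0.33, adjusted p = 5.34e-05 from the edgeR test). None of these overlapped. SNORD17 was also lower, with 17.7, 3.60 and 8.08 CPM against 31.4, 47.3 and 37.8 (−1.89, SE 0.41, adjusted p = 0.00682 from the edgeR test), while SNORD12B had 31.9, 9.01 and 7.40 against 7.35, 15 and 13.0, which overlapped (0.52, adjusted p = 0.477). The 5 printed examples are not the extremes of their kinds, and SCARNA8, SNORD17 and SNORD12B were chosen after their values were seen.

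The C/D snoRNAs with the most counts varied between IgG IP libraries. SNORD3A, the U3 RNA of early rRNA processing, had 1081 CPM in IgG IP replicate 1 and 73.9 and 71.3 in replicates 2 and 3, against 260, 306 and 241 in SMI. Its log2 fold change of 0.61 (adjusted p = 0.604 from the edgeR test) became −1.86 (adjusted p = 3.47e-04) without IgG IP replicate 1. SNORD118, the U8 RNA, had 295, 37.3 and 32.3 CPM against 122, 188 and 130 (−0.24, adjusted p = 0.814), and −2.05 without IgG IP replicate 1 (adjusted p = 8.98e-04). SNORD22 had 48.2, 26.4 and 9.42 against 61.0, 73.2 and 60.1, which did not overlap (−1.15, adjusted p = 0.0545).

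Small Cajal body RNAs, which guide the modification of snRNAs, went both ways: of 20 tested identifiers, 4 were higher and 10 lower. SCARNA4 is counted among the 10 under a pair of identifiers with nearly the same fold change (−1.74 and −1.73). Over all exon features, 7.50% were higher and 10.6% lower. The 10 became 4 without the fullest window and those overlapping it, which leaves few windows of such short RNAs. The 14 identifiers with the ACA box only, SCARNA4 again with a pair, were lower in 10 cases and higher in 0. Among them was SCARNA8, with 1.42, 1.20 and 0 CPM against 10.9, 15.9 and 9.90. SCARNA8 is 1 of 6 tested small Cajal body RNAs that passed the filter through SMI alone, 5 of which were called. Those that were higher were SCARNA2, SCARNA17, SCARNA9 and SCARNA7. SCARNA2 had 792, 491 and 570 CPM against 162, 151 and 111 (2.13, SE 0.23, adjusted p = 5.78e-05 from the edgeR test), and its counts are the same as those of the overlapping identifier ENSG00000270066. SCARNA7 had 129, 60.7 and 70.7 CPM against 38.5, 56.2 and 43.5 (0.93, SE 0.28, adjusted p = 0.0362), and lost its call with total counts (0.77), without the fullest window (0.59) and without IgG IP replicate 1 (0.54), SMI replicate 1 (0.81) or SMI replicate 3 (0.89). SCARNA12 had 142, 87.7 and 81.4 against 98.3, 111 and 76.3, which overlapped (0.14, adjusted p = 0.723), with −0.02 under total counts. SCARNA17 (2.85, adjusted p = 0.00157) and SCARNA9 (2.54, adjusted p = 4.01e-04 from the edgeR test) were chosen after their values were seen.

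Among the 3 tested RNase P, MRP and telomerase RNAs, 2 were lower and 0 higher. The counts in this paragraph stand beside 7.50% of all exon features called higher and 10.6% called lower. RPPH1, the RNA of RNase P, had 170, 147 and 123 CPM against 980, 1240 and 952 (−2.85, SE 0.20, adjusted p = 4.08e-06 from the edgeR test), and RMRP, its relative in rRNA processing, 897, 515 and 438 against 1549, 1642 and 1485 (−1.34, SE 0.25, adjusted p = 0.00256), which lost its call without its fullest window (−0.76). The telomerase RNA TERC had 94.3, 83.5 and 68.7 against 73.9, 115 and 79.5, which overlapped (−0.12, adjusted p = 0.736). Of 7 Y and vault RNAs tested, 3 were lower and 0 higher: VTRNA2-1 (−2.70, adjusted p = 0.00429), VTRNA1-2 (−1.18, adjusted p = 0.0391) and RNY1 (−0.96, adjusted p = 0.0155 from the edgeR test). VTRNA1-2 was not called without IgG IP replicate 2 or 3 or SMI replicate 1 or 2 (−1.09 to −0.92), nor RNY1 without SMI replicate 1 (−0.99) or 2 (−0.96). The wider GENCODE class of other small RNAs, which also holds copies of Y RNA and 7SK, went both ways, with 8 of 50 tested exon features higher and 11 lower.

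Host genes of small nucleolar RNAs moved with the small RNAs that lie in them in some cases. Of 12 tested exon features, 1 was higher and 6 lower, beside 7.50% and 10.6% of all exon features. The 6 became 4 without the fullest window and those overlapping it. The exons of SNHG3 had 184, 90.7 and 141 CPM against 893, 1164 and 997 (−2.87, SE 0.25, adjusted p = 1.52e-05 from the edgeR test), and its introns 161, 36 and 88.8 against 909, 1270 and 1090 (−3.50, adjusted p = 1.10e-04). The SNORA73 genes lie within SNHG3, so counts of SNHG3 and of these snoRNAs overlap. SNHG29 had 321, 324 and 335 CPM against 526, 675 and 493 (−0.79, SE 0.18, adjusted p = 0.00788). SNHG22 was the 1 that was higher, with 421, 482 and 501 CPM against 45, 40.3 and 40 (3.49, SE 0.18, adjusted p = 7.25e-07 from the edgeR test). SCARNA17 lies within SNHG22 but had a mean of only 19.1 CPM in IgG IP, beside 468 CPM for SNHG22.

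**Figure D5:**
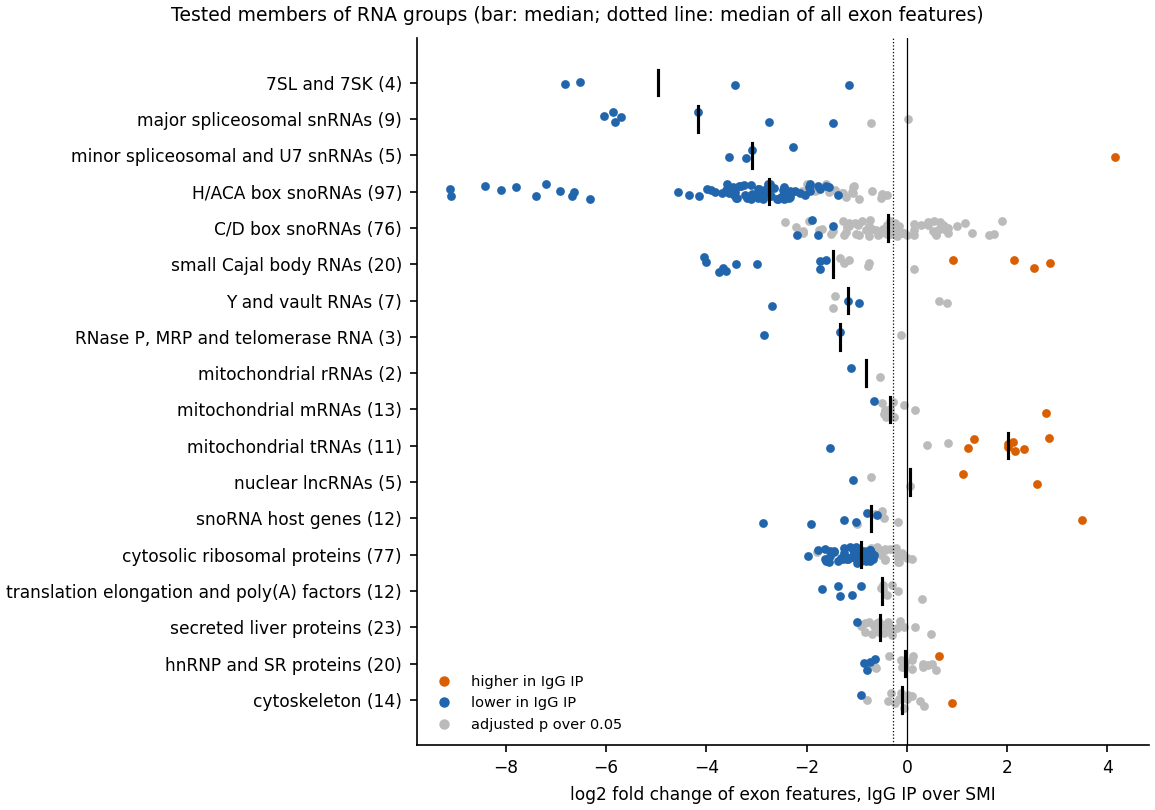
Log2 fold change of IgG IP over SMI for each tested exon feature of 18 RNA groups (number tested in parentheses), coloured by call, with the median of each group as a bar and that of all exon features (−0.28) as a dotted line. The 7SL, spliceosomal and H/ACA groups lie far to the left, the C/D box group around the dotted line, and 8 of 11 mitochondrial tRNAs to the right.

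Most exon features of cytosolic ribosomal protein genes were lower in IgG IP. Of 77 tested, 55 were lower and 0 higher. Their median log2 fold change was −0.91, beside −0.28 for all exon features, of which 10.6% were called lower. The 55 became 41 without the fullest window and those overlapping it. Without SMI replicate 1, 2 and 3 they became 42, 39 and 46. Counts of any small RNAs that lie in these genes were not separated, so a fall of the mRNAs without them was not tested. The ribosomal protein mRNAs with the most counts were RPS2, with 165, 117 and 147 CPM against 439, 470 and 432 (−1.64, SE 0.18, adjusted p = 8.04e-05 from the edgeR test), RPSA, with 289, 153 and 172 against 498, 538 and 493 (−1.31, SE 0.23, adjusted p = 0.00203), and RPL4, with 208, 149 and 138 against 343, 452 and 299 (−1.14, SE 0.22, adjusted p = 0.00348). None of them overlapped. RPLP0, chosen after its values were seen, had the lowest log2 fold change of the list (−1.96, adjusted p = 5.58e-05). The introns of these genes did not share this: of 64 tested, 7 were higher and 5 lower, with a median of −0.02. Over all intron features, 20.2% were higher and 5.44% lower, with a median of 0.08. The 7 became 4 without SMI replicate 1, and the 5 became 2 without the fullest window and those overlapping it. Of the 64, 7 had passed the filter through SMI alone, and 0 of these were called. On the 9-library scale, RPS2 had 152 CPM in IgG IP, 465 in SMI and 260 in MDH2 IP. The list of elongation and poly(A)-binding factors also holds the initiation factor EIF4A2. Of its 12 tested members, 5 were lower, 0 higher and the other 7 not called. The 5 include EIF4A2, whose exon feature overlaps SNORA81. EEF1A1, which brings tRNAs to the ribosome, had 439, 326 and 255 CPM against 794, 1155 and 620 (−1.33, SE 0.26, adjusted p = 0.00360 from the edgeR test), and EEF2, the translocation factor, 832, 535 and 439 against 788, 1175 and 616, which overlapped (−0.51, adjusted p = 0.206).

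Messengers of other abundant proteins were mostly not called. Of 23 tested mRNAs of secreted liver proteins, 1 was lower and 0 higher, with a median of −0.54. APOB was the lower one, with 2304, 1307 and 1059 CPM against 2985, 3531 and 2748 (−0.99, SE 0.26, adjusted p = 0.0193 from the edgeR test), and its call was lost without IgG IP replicate 2 or 3 or SMI replicate 1 or 2 (−1.01 to −0.76). Without IgG IP replicate 1, AFP (−1.08) and ENO1 (−0.90) were called lower. The fetal albumin AFP had 668, 318 and 326 CPM against 674, 789 and 619 (−0.66, adjusted p = 0.10), APOA2 420, 431 and 294 against 505, 727 and 439 (−0.54, adjusted p = 0.107), and the matrix protein FN1 1245, 710 and 518 against 1003, 1382 and 821 (−0.37, adjusted p = 0.396). Of these, AFP and FN1 overlapped between the groups, while in APOA2 each IgG IP library lay below each SMI library. Of 13 glycolytic enzymes, 1 was higher and 1 (GAPDH) lower in exons, while 6 of 12 were higher and 0 lower in introns, beside 20.2% and 5.44% of all intron features. The 6 became 3 without SMI replicate 1. ENO1 (−0.48, adjusted p = 0.255) and PKM (−0.02, adjusted p = 0.966) were not called.

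The cytoskeleton list had 1 of 14 exon features higher and 1 lower, and 7 of 13 intron features higher and 0 lower. Over all features, 7.50% were higher and 10.6% lower in exons, and 20.2% and 5.44% in introns. ACTG1 had 321, 147 and 219 CPM in exons against 413, 447 and 449 (−0.92, SE 0.25, adjusted p = 0.0197 from the edgeR test), with no call without IgG IP replicate 2 or any SMI library (−0.96 to −0.68), while ACTB (−0.32, adjusted p = 0.393) and KRT8 (−0.15, adjusted p = 0.754) were not called. Of 20 mRNAs of hnRNP and SR proteins, 1 was higher and 4 lower in exons, and 9 of 19 were higher and 3 lower in introns. Those with the most counts were HNRNPA2B1, HNRNPH1 and PTBP1, and HNRNPA2B1 (0.10, adjusted p = 0.715) and HNRNPH1 (−0.04, adjusted p = 0.892) overlapped between the groups. Among 345 zinc finger mRNAs, 16 were higher and 19 lower, beside 7.50% and 10.6% of all exon features. Without SMI replicate 1 the 16 became 10. The 19 became 4, 8 and 7 without SMI replicate 1, 2 and 3, and 38 with total counts, and 84 of the 345 had passed the filter through SMI alone. ZNF444 had 219, 236 and 238 CPM against 85.7, 96.2 and 82.0 (1.39, SE 0.17, adjusted p = 1.43e-04 from the edgeR test), ZNF787 144, 136 and 240 against 54.3, 39.6 and 54.9 (1.80, SE 0.25, adjusted p = 3.57e-04), and ZNF207 93.2, 93.1 and 65.3 against 116, 122 and 142 (−0.59, adjusted p = 0.0536).

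The remaining lists had few calls, to be read beside the 7.50% of all exon features called higher and 10.6% called lower. Of 11 ER chaperone mRNAs, CANX was lower (−0.77, adjusted p = 0.0284) and CALR (−0.17, adjusted p = 0.748) and P4HB (−0.14, adjusted p = 0.737) were not called. Of 14 cytosolic chaperones, 1 was lower, and HSPA8 (−0.49, adjusted p = 0.375), HSP90AB1 (−0.13, adjusted p = 0.719) and HSP90AA1 (−0.30, adjusted p = 0.586) were not called. Of 74 mitochondrial ribosomal protein mRNAs, 2 were higher and 10 lower, among them MRPL42 (−0.82, adjusted p = 0.00994), while MRPL11 (−0.57, adjusted p = 0.191) and MRPS25 (0.10, adjusted p = 0.739) were not called. The 10 became 1, 3 and 2 without SMI replicate 1, 2 and 3, and 5 without IgG IP replicate 2 or 3. Of 84 nuclear-encoded respiratory chain subunits, 2 were higher and 7 lower. The 7 became 0 without SMI replicate 1 or 3, 1 without SMI replicate 2, 3 and 4 without IgG IP replicates 2 and 3, 13 without IgG IP replicate 1 and 22 with total counts. The subunits with the most counts, ATP5F1B (−0.54, adjusted p = 0.105), NDUFV1 (0.34, adjusted p = 0.191) and NDUFS8 (0.57, adjusted p = 0.0594) were not called. Of 52 replication-dependent histone mRNAs, 1 was lower and 0 higher, and H1-2 (−0.29, adjusted p = 0.434), H1-4 (−0.23, adjusted p = 0.563) and H2BC21 (−0.21, adjusted p = 0.668) were not called. The call of CANX was lost with windows that do not overlap (−0.62) and without any library but SMI replicate 3 (−0.85 to −0.51), and that of MRPL42 without SMI replicate 1 (−0.83), while ATP5F1B was called lower without IgG IP replicate 1 (−0.83). All these adjusted p-values are edgeR's.

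The largest rises were in features almost absent from the input. In exons, LINC01593 had 44.7, 13.8 and 6.73 CPM in IgG IP and was at 0 throughout SMI. Taking 3 counts over the SMI group (0.103 CPM) as the floor, it was at least 211-fold higher, and its counts lay in 1 window. ENSG00000280118 had 17.7, 17.4 and 12.8 CPM and 0 in SMI, at least 155-fold higher. ENSG00000281621 had 35.8, 14.4 and 17.5 CPM against 0, 0.404 and 0.485, SBNO2 9.21, 9.61 and 19.5 against 0.226, 0.303 and 0.194, and RNU1-16P 7.09, 15.6 and 20.9 against 0.452, 0.807 and 0.194. RNA5-8SP2, a pseudogene of 5.8S rRNA, had 213, 81.1 and 53.2 CPM against 1.13, 5.15 and 2.13, and an annotated Y RNA copy at chr1:148330271-148330394 had 21.3, 11.4 and 8.75 against 0, 0.202 and 0.388. The numbered tRNA genes 13032 and 20281, which the files do not pair with a tRNA name, had 195, 121 and 133 CPM against 1.81, 3.84 and 2.13, and 36.1, 10.8 and 11.4 against 0.678, 0.101 and 0.291. On the 9-library scale, tRNA 13032 had 1927 CPM in MDH2 IP and 159 in IgG IP, and tRNA 20281 had 11.5 and 20.5. All of these but RNA5-8SP2 and tRNA 13032 had fewer than 10 counts in each SMI library and passed the filter through IgG IP alone, so they had to differ and are given without a test. Of all 190 tested nuclear tRNA identifiers, 16 (8.42%) were higher and 97 (51.1%) lower, beside 7.50% and 10.6% of all exon features. Some of the 97, such as 36105 and 12967, had 0 counts in each IgG IP library and passed the filter through SMI alone. The share of counts in nuclear tRNAs as a class overlapped between the groups, as given above.

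In introns, MMP25 had 33.7, 28.8 and 8.08 CPM in IgG IP and 0 in SMI, at least 228-fold higher, and LINC01800 4.25, 6.01 and 6.73 and 0, at least 54.9-fold higher. TECTA had 194, 149 and 228 CPM against 1.02, 1.11 and 1.46 (log2 fold change 7.28, SE 0.29, adjusted p = 7.28e-08 from the edgeR test), and LINC02421 36.1, 10.8 and 14.8 against 0, 0.404 and 0.194. SLC6A17 and MUC5B-AS1, each with 2 SMI counts in all, had 8.51, 12.6 and 14.1 CPM against 0.226, 0 and 0 and 3.90, 13.8 and 11.4 against 0, 0 and 0.194. Of these, TECTA alone reached 10 counts in an SMI library, and the others are given without a test for the same reason. In TECTA and LINC02421, 48.3% and 49.3% of the counts lay in the fullest window, beside 0.0340% and 0.218% in SHANK2 and ZFPM1.

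The largest falls were RNAs with 0 counts in each IgG IP library. In exons, SNORA50A, listed under a pair of overlapping identifiers, had 11, 15.4 and 9.12 CPM in SMI, at least 23.6-fold lower in IgG IP, with 3 counts over that group (0.502 CPM) as the floor. SNORA28 had 3.62, 9.39 and 8.73 CPM in SMI (at least 14.4-fold lower), the 5S rRNA pseudogene RNA5SP302 7.12, 6.46 and 8.25 (at least 14.5-fold lower) and ENSG00000250027 7.01, 6.46 and 5.82 (at least 12.8-fold lower). The numbered tRNA genes 36105 and 12967 had 10.6, 9.89 and 8.83 CPM and 7.12, 7.47 and 7.57 CPM in SMI (at least 19.5-fold and 14.7-fold lower). In introns, LINC01865 had 11.5, 16.6 and 18.5 CPM in SMI (at least 30.9-fold lower), MESP2 6.56, 9.39 and 6.50 (at least 14.9-fold lower) and ZMAT2 4.86, 5.45 and 3.98 (at least 9.48-fold lower). LAMB4, DHX40 and ENSG00000226526 were at least 7.44-fold, 6.64-fold and 5.94-fold lower. These features passed the filter through SMI alone, where they are high, and are given without a test. In LAMB4 and DHX40 the counts were spread over the introns, with at most 2.06% in the fullest window, while in LINC01865, MESP2 and ENSG00000226526 the fullest window held between 33.5% and 45.9%.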

How the data were processed

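eCLIP libraries of Huh7 cells were compared, 3 of IgG IP and 3 of SMI. The authors trimmed reads (cutadapt), aligned them (STAR) with up to 10 alignments per read, removed PCR duplicates by molecular identifier and deposited window counts of cross-link sites (window 50 nt, step 20 nt) along GENCODE v23 genes and tRNAs on GRCh38 (HTSeq is also named in the submitters' processing notes). A site is thus counted in up to 3 windows. Counts were summed per gene identifier, exons and introns apart, and features reaching 10 counts in 3 or more of 6 libraries were tested with edgeR 4.0.16 (R 4.3.3; quasi-likelihood, TMM, two-sided, Benjamini-Hochberg over all 25783 features, 0.05). Members, lists and tests were chosen with earlier results of these data known. Named features were the 10 largest rises and falls in exons and 6 in introns among called features without overlap, the 5 with the highest IgG IP mean of each part, and the 3 with the most counts of each list; others are marked. At most 2 unnamed tRNA numbers and 2 identifiers without a symbol are given per direction. Symbols, classes and GC content came from GENCODE v44, which matched 96.6% of 34950 Ensembl identifiers. Shares were compared by exact permutation (Python 3.11.15, scipy 1.17.1). Tested on simulated data, 89% of 200 features changed 4-fold were recovered, with 8 false calls. The changed features were balanced in direction and left out the least abundant ones. The real comparison has many more calls, unevenly balanced, so the simulation does not give its rate of false calls. Alternatives were other scalings, DESeq2 1.42.0, filters, all 9 libraries, windows that do not overlap, omission of the fullest window, the replicate number as a block and leaving out each library.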

Additional observations from a re-analysis of the deposited data

How the results depend on the processing

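Total window counts count a site up to 3 times, and IgG IP libraries are the shallower, so falls to 0 are bounds. Of 2328 values of named features under an alternative, 2162 kept direction and call, 39 gained a call, 89 lost it and 38 changed sign. Of 213 share values, 211 kept their direction. Of 322 counts of called list members, 52 moved by over 1.5 times, most of them in the zinc finger, mitochondrial ribosomal protein and respiratory chain lists. With total counts, AFP (−0.82), APOA2 (−0.70), ATP5F1B (−0.70), MT-RNR1 (−0.69), ZNF207 (−0.75) and SNORD22 (−1.31) were called lower. NDUFS8 was called higher with DESeq2 (0.59), all 9 libraries (0.61) and windows that do not overlap (0.68). Whether the replicate numbers pair the libraries was not settled. Deviations from the group means correlated at −0.009, 0.266 and 0.321 between IgG IP and SMI libraries of number 1, 2 and 3. Between IgG IP replicate 2 and SMI replicate 3 the correlation was −0.279, and between IgG IP replicate 3 and SMI replicate 2 it was −0.319. With the number as a replicate block, 2093 exon and 1324 intron features were lower, and 1225 exon and 2933 intron features higher. The cause of the changes below was not tested.

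Exon features lower in IgG IP numbered 1356, and 2113 with total counts, 2437 with no filter and 765 with exons and introns fitted apart. Intron features lower numbered 707, and 1355, 1436 and 1635 under the same settings, 449 with windows that do not overlap (exons 974 higher and 962 lower, introns 2391 higher) and 315 at 2-fold or more. Leaving out 1 library gave 498 to 910 exon features higher, 579 to 1455 lower, and 1850 to 2568 intron features higher and 149 to 603 lower, each lowest without SMI replicate 1. The lncRNA intron difference was −0.00409 percentage points without the 100 fullest windows, and that of miRNA genes −3.19e-05 over tested features only.

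Values that changed sign, on the log2 scale, were small in most cases. With total counts they were MALAT1 −0.09, HNRNPA2B1 −0.06, MRPS25 −0.06 and SCARNA12 −0.02. With windows that do not overlap they were MT-TV 1.66 (its window 1 alone), HNRNPH1 0.04, PKM 0.05 and MT-ND1 0.03. Without the fullest window they were TMEM19 −0.90, the introns of SYCP2L −0.10 (5.10 with it), TERC 0.33 and PKM 0.04. PKM had 0.01 in the fit of all 9 libraries, and SNORD3A −0.59 with the replicate block. With 1 library left out, MALAT1 ranged from −0.11 to 0.21, SNORD118 from −2.05 to 0.21, SNORD3A from −1.86 to 1.12, SNORD12B from −0.49 to 0.86, SCARNA12 from −0.14 to 0.30, KRT8 from −0.51 to 0.14, PKM from −0.33 to 0.25, HSP90AA1 from −0.59 to 0.22, HSP90AB1 from −0.36 to 0.09, H2BC21 from −0.65 to 0.02, CALR from −0.43 to 0.18, P4HB from −0.35 to 0.08, TERC from −0.24 to 0.10 and MT-ND1 from −0.19 to 0.03.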
